A study of Mus musculus with 8 samples.

Results

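The 9 genes described here mark macrophages, and were followed in tumor cells that a magnetic column had split by iron content: Csf1r, Adgre1, Mertk, Spi1, Cd68, Cd14, Lyz2, Ms4a7 and Aif1. They were picked as receptors, markers and a lineage factor shared by macrophages in general, and they are 9 of 35975 annotated genes with a value, all 9 of them among the 13343 that were tested. The iron positive group held the cells that the column retained and the iron negative group held the cells that flowed through. Both came from fibrosarcomas of syngeneic cells implanted under the skin of wild-type C57BL/6 mice. Each tumor was digested with collagenase and DNase and its red cells were lysed before the column. Each group had 4 libraries, tagged 3L, 3R, 4R and 5L in both. The labels give no age, no antibody sort and no meaning for the tags, so p-values measure the spread between these libraries.

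Macrophages are phagocytes of the innate immune system that clear dying cells, debris and microbes, and in tumors they are often the most numerous leukocytes. Their development rests on the transcription factor PU.1, the product of Spi1, which binds enhancers and promoters across the myeloid genome and drives Csf1r. The receptor encoded by Csf1r then binds CSF1 and IL-34 and keeps the cells alive. In the spleen, liver and bone marrow, macrophages take up old red cells and recycle their iron, and such cells can be retained by a magnet.

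The labels call the material tumor, and the series title speaks of macrophages. The 24 other macrophage genes that were listed beside the 9 all passed the filter on low counts, and their summed level was 66064 to 80670 TPM (transcripts-per-million values, scaled for transcript length) in iron positive and 80355 to 88641 TPM in iron negative libraries. Library totals were 19036520 to 22588951 estimated counts in iron positive and 20603878 to 24306607 in iron negative libraries. Markers of other cells were not at the same level in the groups. The 13 endothelial markers summed to 82.5 to 864 TPM in iron positive and 20.4 to 39.5 TPM in iron negative libraries, and all 13 rose (edgeR). The 12 fibroblast and fibrosarcoma markers summed to 192 to 1971 TPM in iron positive and 49.3 to 152 TPM in iron negative libraries, and 7 of the 11 tested rose. Of the other markers tested, 7 of 10 pericyte and smooth muscle, 7 of 8 skeletal muscle, 4 of 7 neutrophil, 3 of 10 monocyte, 1 of 9 dendritic cell, 1 of 3 adipocyte and 1 of 1 mast cell markers rose. The 3 monocyte markers that rose were Vcan, Fn1 and Ace. All 3 were highest in iron positive 3R, as were the endothelial and fibroblast sums, whose part was not tested. Across these lists of other cells, 1 monocyte marker (Ccr2, -0.89, edgeR adjusted p = 0.0198), 1 dendritic cell, 1 of 7 T and NK cell and 1 of 4 B cell markers fell. Limma voom called fewer of these markers higher: 0 endothelial, 1 fibroblast, 1 pericyte, 4 skeletal muscle, 1 neutrophil, 1 monocyte and no dendritic cell, mast cell or adipocyte marker. With the tag as a block 10 fibroblast, 9 pericyte, 5 monocyte and 2 dendritic cell markers were higher, and 2 T and NK cell and 2 B cell markers lower. Of 6 erythroid markers 0 passed in edgeR, with 5 higher at an unadjusted p under 0.05, 4 higher with the tag as a block, 1 with DESeq2 and 0 with voom. Of 2 keratinocyte markers 0 passed in each of these fits and 0 at an unadjusted p under 0.05. Krt5, Adipoq and Lep were listed at 0 in every library. In bulk RNA, fewer macrophages and less of a transcript per macrophage cannot be told apart.

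In the iron positive libraries 5 of the 9 genes were lower, by at most 0.61 on the log2 scale, and the other 4 did not pass. Csf1r, Adgre1, Spi1, Ms4a7 and Aif1 fell when libraries were scaled by TMM (trimmed mean of M values). None of the 9 rose, and 0 were higher at an unadjusted p under 0.05, with DESeq2 or with limma voom. The test was edgeR's quasi-likelihood test without a term for the tag, called at 0.05 after Benjamini-Hochberg adjustment over all genes. That is 5 lower genes of 9, where 5.21% of all genes tested were called lower and 8.49% higher, 13.7% in either direction. In these 5 genes the groups did not overlap in any library. Cd14, Cd68, Mertk and Lyz2 did not pass, at log2 fold changes of -0.37, -0.10, 0.05 and 0.11. With the tag as a block Cd14 passed as well (edgeR adjusted p = 0.0268). The median log2 fold change of the 9 was -0.37, beside -0.01 over all genes tested. Scaling by library totals called the same 5 genes, where 2.71% of all genes were lower and 8.78% higher. None of the 9 passed without iron negative 3L, 3R, 4R or 5L, where Csf1r had edgeR adjusted p = 0.0619, 0.0562, 0.063 and 0.0568 at log2 fold changes of -0.59 to -0.63, and where 5 of the 9 had an unadjusted p under 0.05. Over all genes, too, edgeR called 0 without iron negative 3L, 3R or 4R, and 26 higher and 12 lower without 5L. Without iron positive 4R, Csf1r and Adgre1 alone of the 9 passed.

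**Figure D1:**
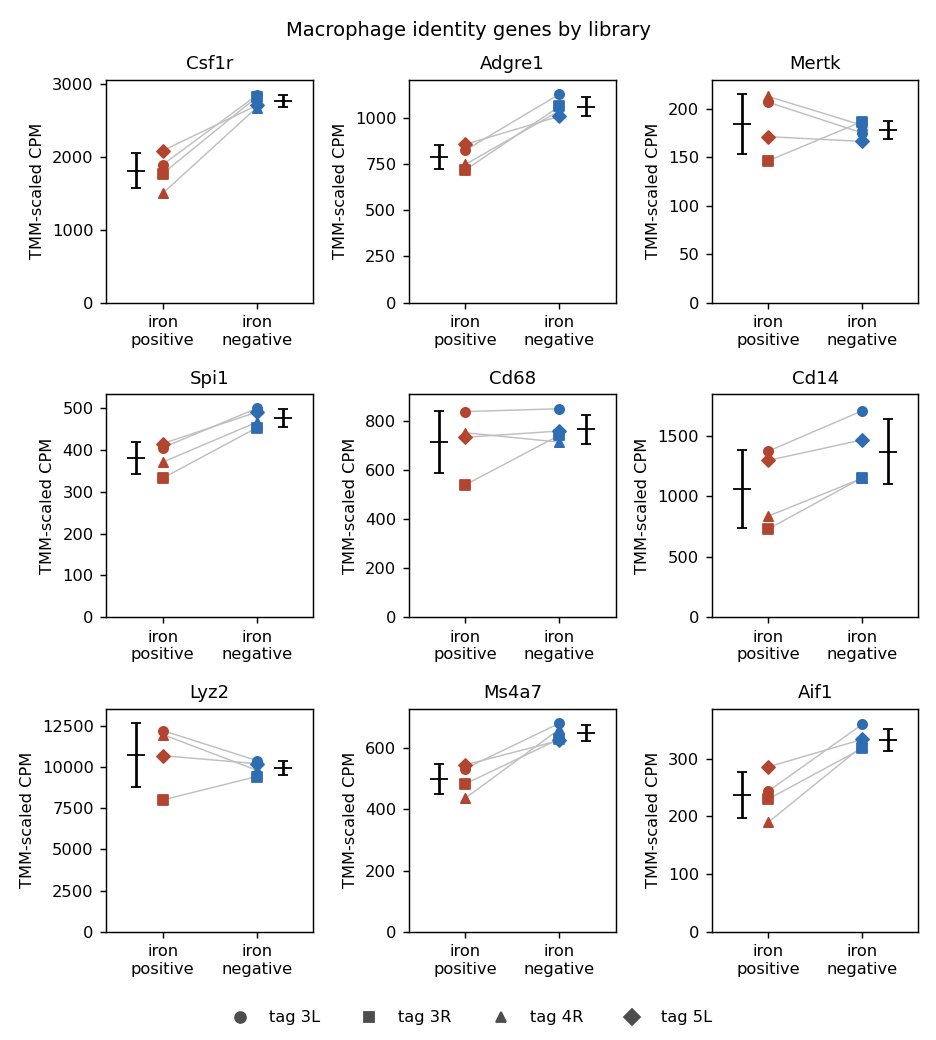
Level of each of the 9 genes (TMM-scaled CPM, axis from 0) in the 4 iron positive and 4 iron negative libraries, with grey lines joining libraries of the same tag and black bars for mean ± SD. Csf1r, Adgre1, Spi1, Ms4a7 and Aif1 have no overlap between the groups, whereas Mertk, Cd68, Cd14 and Lyz2 overlap.

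Csf1r, the CSF1 receptor that defines the lineage (chr18:61100598-61132149 on mm10, plus strand), showed the steepest fall. It stood at 1895 (3L), 1772 (3R), 1502 (4R) and 2088 (5L) in iron positive libraries, against 2850, 2825, 2681 and 2710 in iron negative ones, all as TMM-scaled counts-per-million values (CPM). Every iron positive library lay below every iron negative one, and 4R was the lowest. In iron positive 3L, 3R, 4R and 5L the endothelial sum was 82.5, 864, 589 and 152 TPM and the fibroblast sum 192, 1971, 805 and 234 TPM, all above every iron negative library, and the part of those cells in the result was not tested. The log2 fold change, iron positive minus iron negative, was -0.61 ± 0.11 (SE) with edgeR adjusted p = 0.0177. On the opposite strand Hmgxb3 overlaps 15.1% of the exonic bases of Csf1r, but its counts were 1.0% to 2.22% of those given to Csf1r. Adgre1, which encodes F4/80, the classic surface antigen of mouse macrophages (chr17:57358691-57483527), stood at 823, 717, 747 and 855 CPM in iron positive 3L, 3R, 4R and 5L, against 1126, 1060, 1036 and 1007 CPM in the iron negative libraries. It was lower in all 4 same-tag pairs, with a log2 fold change of -0.43 ± 0.08 and edgeR adjusted p = 0.0184.

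Spi1, the gene of PU.1 (chr2:91082390-91115756), fell by 0.32 ± 0.08 on the log2 scale (edgeR adjusted p = 0.0373). Its level was 405, 332, 371 and 415 CPM in iron positive 3L, 3R, 4R and 5L, against 499, 453, 466 and 490 CPM in iron negative ones. The gap between the groups was narrow, since the highest iron positive library (5L) reached 415 and the lowest iron negative one (3R) 453 CPM. Of 12 other fits over all libraries 5 called Spi1, the fewest among the 5 genes. It was lost with limma voom (adjusted p = 0.0618), on log2(TPM + 1) (0.0508), without a filter (0.0529), with a filter of 10 CPM (0.0578), with housekeeping scaling (0.0693) and without iron positive 4R (0.095). Scaling to macrophage genes (-0.02, edgeR adjusted p = 0.776) or leukocyte genes (-0.03, 0.743) lost it too, as did leaving out any 1 iron negative library (0.0828 to 0.108).

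Ms4a7, a tetraspan membrane protein of the MS4A family (chr19:11321039-11336146), stood at 533, 483, 436 and 545 CPM in iron positive 3L, 3R, 4R and 5L and at 680, 629, 661 and 624 CPM in iron negative libraries. It fell by 0.38 ± 0.08 on the log2 scale (edgeR adjusted p = 0.0256; 0.0543 without iron positive 4R). Aif1 encodes IBA1, a calcium-binding protein that bundles actin and is a standard stain for macrophages and microglia (chr17:35170991-35176068). Its values were 244, 230, 190 and 286 CPM in iron positive and 360, 318, 322 and 334 CPM in iron negative libraries of the same tag order. Aif1 fell by 0.49 ± 0.12 (edgeR adjusted p = 0.0304). That call did not hold without iron positive 3R (0.0512) or 4R (0.0543), with voom (0.0529), on log2(TPM + 1) (0.059) or with housekeeping scaling (0.0501). Scaling to macrophage genes (-0.19, edgeR adjusted p = 0.131) or leukocyte genes (-0.19, 0.134) lost it too, as did leaving out any 1 iron negative library (0.0712 to 0.0895). Csf1r, Ms4a7 and Aif1 shared an order among the iron positive libraries, highest in 5L, then 3L, 3R and 4R.

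Cd14, the co-receptor that hands endotoxin to TLR4 and MD-2 (chr18:36725067-36726798), varied with the tag in both fractions. In iron positive 3L, 3R, 4R and 5L it had 1371, 728, 835 and 1295 CPM, against 1705, 1152, 1148 and 1465 CPM in the iron negative libraries. Tags 3L and 5L were high and 3R and 4R low in both groups, and within each tag the iron positive library was the lower. The log2 fold change was -0.37 ± 0.23 (edgeR adjusted p = 0.312). With the tag as a replicate block it was -0.40 ± 0.09 and passed (edgeR adjusted p = 0.0268), which made 6 of the 9 lower where 9.39% of all genes were lower and 12.8% higher.

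Cd68, a heavily glycosylated protein of lysosomes and endosomes (chr11:69664213-69666153), did not separate the groups. It stood at 839, 540, 752 and 734 CPM in iron positive 3L, 3R, 4R and 5L, against 850, 742, 714 and 759 CPM in iron negative libraries, and iron positive 3R was the lowest of the 8. The log2 fold change was -0.10 ± 0.13 (edgeR adjusted p = 0.66). Mertk, the receptor kinase through which macrophages engulf dying cells (chr2:128698956-128802894), had 207, 146, 213 and 171 CPM in iron positive and 175, 187, 183 and 166 CPM in iron negative libraries. It was higher in 3 of 4 pairs and lower in 3R, at 0.05 ± 0.12 (edgeR adjusted p = 0.803). Lyz2, the lysozyme that is among the most abundant transcripts of myeloid cells (chr10:117277331-117282321), had 12206, 7999, 11963 and 10680 CPM in iron positive and 10388, 9416, 9803 and 10197 CPM in iron negative libraries. It too was higher in 3 of 4 pairs and lower in 3R, at 0.11 ± 0.15 (edgeR adjusted p = 0.67). Cd68, Mertk and Lyz2, like Adgre1, Spi1 and Cd14, had their lowest iron positive value in 3R, the library with the highest endothelial (864 TPM) and fibroblast (1971 TPM) sums, whose part in these values was not tested.

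**Figure D2:**
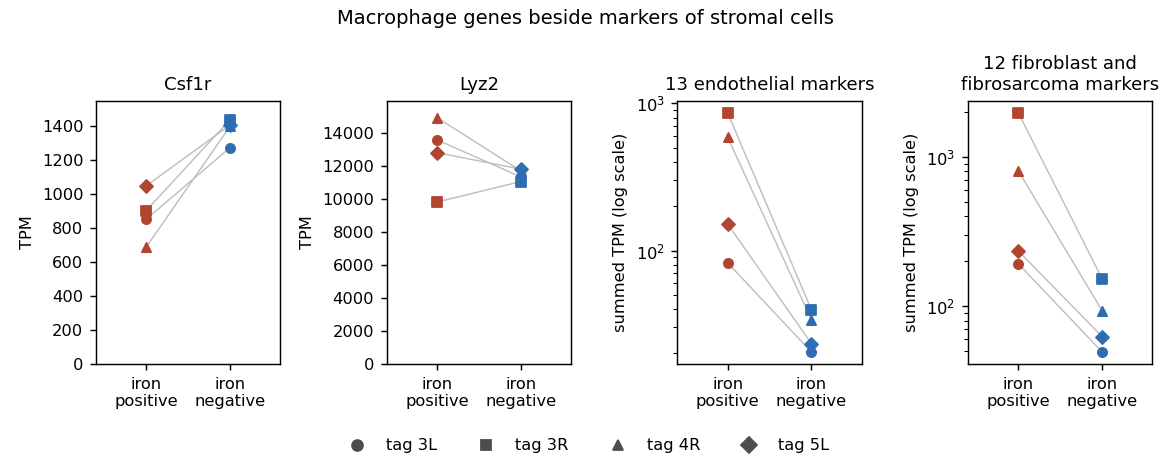
Csf1r and Lyz2 (TPM, axis from 0) beside the summed TPM of 13 endothelial and 12 fibroblast and fibrosarcoma markers (log axis) in each library, with lines joining equal tags. Iron positive 3R and 4R have the highest stromal sums, 3R the lowest Lyz2 (9820 TPM) and 4R the lowest Csf1r (687 TPM).

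Per length of transcript, Lyz2 stood far above the other 8 genes, at 12796 ± 2169 TPM in iron positive and 11484 ± 346 TPM in iron negative libraries (SD, n = 4 each). Cd14 followed at 1091 ± 277 TPM in iron positive and 1388 ± 192 TPM in iron negative libraries. Cd68 had 961 ± 149 TPM in iron positive and 988 ± 38 TPM in iron negative libraries, and Csf1r 872 ± 149 TPM in iron positive and 1379 ± 72 TPM in iron negative ones. The ranges of these 3 genes overlapped in the iron positive libraries, while in the iron negative ones Cd14 and Csf1r overlapped and Cd68 lay below both. Ms4a7 (681 ± 46 against 854 ± 35 TPM), Aif1 (539 ± 95 against 735 ± 30), Adgre1 (419 ± 21 against 545 ± 18), Spi1 (344 ± 33 against 426 ± 16) and Mertk (58.9 ± 9.7 against 54.8 ± 4.4 TPM) came next, each given as iron positive against iron negative, and their order was the same in both groups. Among iron positive libraries the ranges of Csf1r and Ms4a7, of Ms4a7 and Aif1 and of Aif1 and Adgre1 overlapped. Every one of the 9 genes spread more widely among iron positive libraries, with coefficients of variation of 5.03% to 25.4%, against 3.02% to 13.8% among iron negative ones. The 9 together summed to 17760 ± 2373 TPM in iron positive and 17850 ± 429 TPM in iron negative libraries, most of it Lyz2. Without Lyz2, the other 8 summed to 5213, 4435, 4528 and 5687 TPM in iron positive and to 6574, 6199, 6233 and 6471 TPM in iron negative 3L, 3R, 4R and 5L.

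Which of the 9 were called depended in part on the scaling of the libraries. Scaling by relative log expression, upper quartile or library totals called the same 5 genes lower as TMM. TMM sets the bulk of all genes to no change. When libraries were scaled instead to the 24 other macrophage genes, which contain none of the 9, the median of all genes moved by 0.31 log2 units. By that scaling Csf1r still fell, at -0.31 ± 0.09 (edgeR adjusted p = 0.0264), and it was the only one of the 9 called lower, where 0.585% of all genes were. Mertk (0.36 ± 0.12, adjusted p = 0.0404) and Lyz2 (0.41 ± 0.12, adjusted p = 0.0277) were called higher, where 36.8% of all genes were, so 2 of 9 is below the share in all genes. Spi1 (-0.02), Ms4a7 (-0.07), Adgre1 (-0.12), Aif1 (-0.19) and Cd14 (-0.09) kept a negative sign without passing, and Cd68 turned to 0.20 (adjusted p = 0.139). Scaling to 18 genes expressed by leukocytes in general gave the same 3 calls and the same signs, where 0.6% of all genes were lower and 37.9% higher, with Csf1r at -0.31, Mertk at 0.35 and Lyz2 at 0.40. Under the macrophage scaling none of the 9 passed without iron positive 4R or iron negative 3L, 3R or 4R, where Csf1r had adjusted p = 0.0602, 0.0611, 0.0726 and 0.0575. Without iron negative 5L Lyz2 alone passed (0.0411), and without iron positive 3L Csf1r and Lyz2 did.

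**Figure D3:**
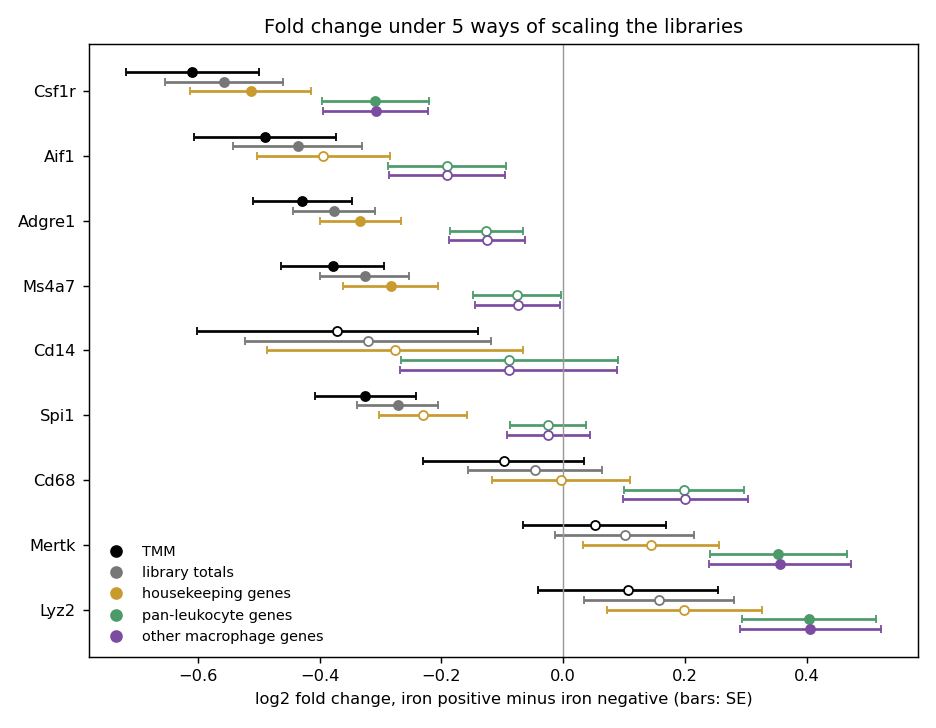
Log2 fold change (iron positive minus iron negative, bars are SE) of the 9 genes from edgeR with libraries scaled in 5 ways, filled where adjusted p is under 0.05. Scaling to leukocyte or macrophage genes moves every point to the right, so that Csf1r alone remains called lower and Mertk and Lyz2 are called higher.

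Ratios between 2 genes of one library do not depend on how libraries are scaled. Csf1r had the lowest fold change of the 9, so the other 8 genes, set over Csf1r, had higher mean ratios in the iron positive libraries by arithmetic, and the 8 ratios share its values. Within pairs each ratio was higher in 4 of 4. The ratio of Lyz2 to Csf1r had a log2 value of 3.87 ± 0.44 in iron positive and 3.06 ± 0.09 in iron negative libraries (SD, n = 4 each), a difference of 0.81. Mertk relative to Csf1r stood at -3.89 ± 0.46 in iron positive and -4.66 ± 0.10 in iron negative libraries, a difference of 0.77, and Cd68 relative to Csf1r at 0.14 ± 0.40 in iron positive and -0.48 ± 0.13 in iron negative ones, a difference of 0.62. Spi1 (0.36) and Ms4a7 (0.35) had smaller differences. For these 5 ratios the groups did not overlap, and an exact permutation test over the libraries gave two-sided p = 0.0286, the smallest possible with 4 against 4, or 0.0457 adjusted over the 8 ratios. Adgre1 (0.29) and Aif1 (0.21) each gave an exact permutation p of 0.0571, 0.0653 adjusted. Cd14 (0.30) gave an exact permutation p of 0.143. With estimated counts in place of TPM, 7 of the 8 ratios passed. With Spi1 as the denominator 0 of 8 ratios passed the exact permutation test (smallest adjusted p = 0.114). The 2 ratios of Csf1r and Lyz2 did not overlap between the groups and had the smallest possible unadjusted p, 0.0286. Because p cannot go lower, a ratio passes the adjustment only when several of the 8 reach that value. The ratio of Lyz2 to Spi1 then had the largest positive difference, 0.45, and that of Csf1r to Spi1 the only negative one that did not overlap, -0.36. Iron positive 4R had the highest ratio to Csf1r for Adgre1, Mertk, Spi1, Cd68, Lyz2 and Ms4a7.

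**Figure D4:**
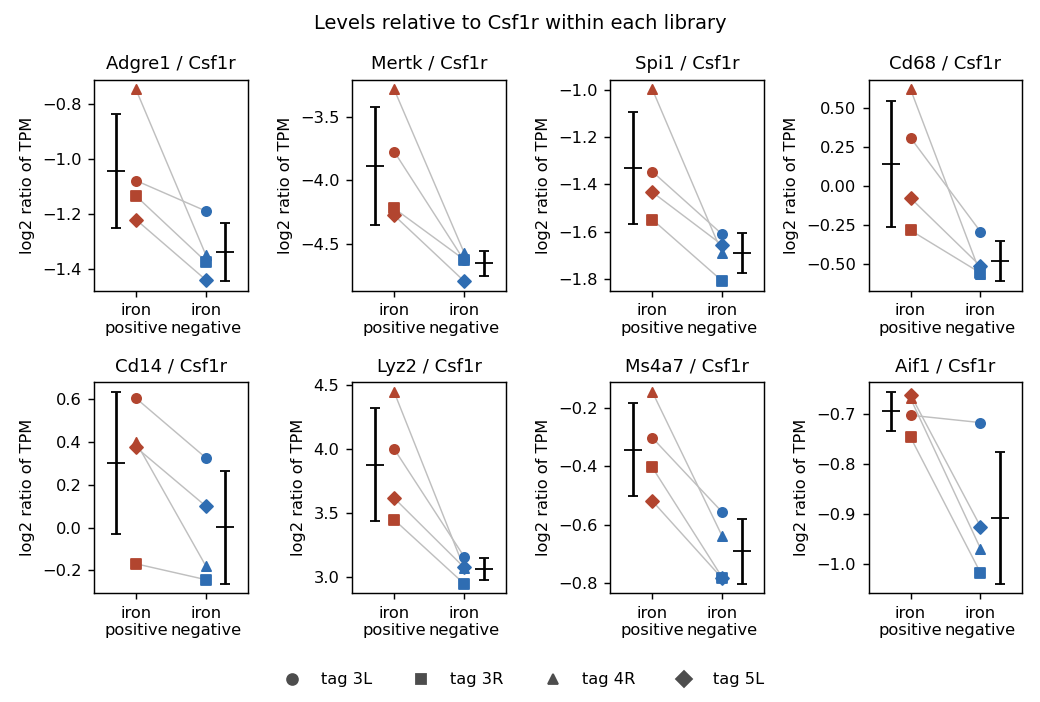
Log2 ratio of TPM of each other gene to Csf1r within each library, iron positive left and iron negative right, with mean ± SD in black and lines joining equal tags. All lines run downward to the right, and iron positive 4R tops 6 of the 8 panels.

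In each of these genes 1 transcript held most of the level. Csf1r-201 held 64.5% to 76.7% of the TPM of Csf1r in iron positive and 60.4% to 67.9% in iron negative libraries. A short entry of 416 bases annotated as protein coding, Csf1r-205, held 20.7% to 32.3% in iron positive and 29.5% to 36.9% in iron negative libraries. Adgre1-202 held 71.3% to 75.2% of Adgre1 in iron positive and 72.9% to 74.8% in iron negative libraries, and Spi1-201 held 71.8% to 77.0% of Spi1 in iron positive and 71.5% to 74.3% in iron negative ones. Ms4a7 was split between Ms4a7-203, at 57.6% to 65.9% in iron positive and 59.6% to 64.7% in iron negative libraries, and Ms4a7-202. For Cd14 an entry annotated as a retained intron, Cd14-202, took 17.1% to 26.4% in iron positive and 18.9% to 26.7% in iron negative libraries. The ranges overlapped in each case, and these shares were not tested.

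Promoter windows from RefSeq were read for Mertk, Cd68, Lyz2, Ms4a7 and Aif1, and 4 are shown because they set genes that did not pass with TMM (Mertk, Cd68 and Lyz2) beside one that fell (Aif1). Each is the 200 bases before the RefSeq start on GRCm38.p6, 5′ to 3′ on the strand of the gene, at chr2:128698715-128698914 (plus strand), chr11:69666171-69666370, chr10:117282273-117282472 and chr17:35176053-35176252 (minus strand). Capitals mark the letters of 5 motifs, searched on both strands, that are written like sites of macrophage factors: AGGAAGT and GAGGAA (PU.1, which overlap where they run together), TGANTCA (AP-1), TTGCNNAA (C/EBP) and an IRF pair, which is GAAA, any 2 bases and GAAA again.
Mertk: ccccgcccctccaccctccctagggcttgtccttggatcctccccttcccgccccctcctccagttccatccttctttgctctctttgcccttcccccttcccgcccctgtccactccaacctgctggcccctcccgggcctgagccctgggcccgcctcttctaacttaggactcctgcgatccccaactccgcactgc
Cd68: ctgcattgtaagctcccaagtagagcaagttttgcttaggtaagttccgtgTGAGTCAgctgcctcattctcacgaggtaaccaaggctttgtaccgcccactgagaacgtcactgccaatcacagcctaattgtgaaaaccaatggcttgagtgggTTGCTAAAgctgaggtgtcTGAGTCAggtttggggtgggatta
Lyz2: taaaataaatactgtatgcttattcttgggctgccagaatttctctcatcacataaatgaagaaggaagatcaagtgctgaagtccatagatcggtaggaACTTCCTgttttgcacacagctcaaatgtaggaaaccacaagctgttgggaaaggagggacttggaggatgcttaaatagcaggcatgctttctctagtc
Aif1: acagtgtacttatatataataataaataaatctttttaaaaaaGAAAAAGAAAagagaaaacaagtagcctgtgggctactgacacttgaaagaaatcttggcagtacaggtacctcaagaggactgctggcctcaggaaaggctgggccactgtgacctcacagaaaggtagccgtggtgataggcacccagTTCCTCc
The Cd68 stretch holds 2 matches to TGANTCA and 1 to TTGCNNAA, that of Lyz2 holds AGGAAGT on the other strand, that of Aif1 holds GAGGAA on the other strand and the IRF pair, and that of Mertk holds none of the 5. Of all 32851 RefSeq windows of 300 bases, 9.35% hold AGGAAGT, 28.3% GAGGAA, 7.81% TGANTCA, 10.8% TTGCNNAA and 3.44% the IRF pair. In its whole window of 300 bases Cd68 also matches GAGGAA at positions -225 and 30, outside the printed stretch. Over windows of the same length, the second start of Ms4a7 has 1 match to TGANTCA and its first start 1 to GAGGAA, at position 44. A match describes letters only.

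Of 13 ligands and signalling genes around Csf1r, 4 were lower and none higher in the iron positive libraries with TMM (median log2 fold change -0.19; 7 lower with the tag as a block). Plcg2, a phospholipase, fell by 0.33 ± 0.07 (edgeR adjusted p = 0.0237) and Inpp5d, the phosphatase SHIP1, by 0.35 ± 0.08 (edgeR adjusted p = 0.0318). The ligand Csf1 had 35.1 ± 8.1 CPM in iron positive and 27.6 ± 4.7 CPM in iron negative libraries (0.35, edgeR adjusted p = 0.208). Under the macrophage scaling, where 36.8% of all genes were higher, 2 of the 13 were, Csf1 (0.67) among them, and none lower. Among 14 tested lineage factors, 3 were lower and none higher (median -0.22; 7 lower with the block): Irf8, the partner of PU.1 at composite sites (-0.38 ± 0.07, edgeR adjusted p = 0.0176), Nr1h3, the sterol receptor LXR alpha (-0.34), and Batf3, better known from dendritic cells (-0.81). Under the macrophage scaling 0 of the 14 passed in edgeR, with 1 higher and 1 lower at an unadjusted p under 0.05.

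Of 12 engulfment genes tested, 4 were lower and 2 higher with TMM (median -0.04), 5 lower and 3 higher with the block, and 0 lower and 5 higher under the macrophage scaling (median 0.27). With limma voom 1 was lower and 0 higher, so Gas6 and Mfge8 did not pass there. Itgb5, an integrin chain that pairs with integrin alpha V (-0.49 ± 0.10, edgeR adjusted p = 0.0229), the GTPase Rac1 (-0.27) and Axl, the sister receptor of Mertk (-0.77), were among the lower. The higher ones were Gas6, a ligand that bridges Mertk and Axl to dying cells (320 ± 84 CPM in iron positive and 209 ± 10 CPM in iron negative libraries, 0.62, edgeR adjusted p = 0.0487), and Mfge8, another bridging protein (1.80, edgeR adjusted p = 0.0337). Mfge8 had 17.0, 73.6, 43.8 and 19.4 CPM in iron positive 3L, 3R, 4R and 5L, against 11.1 ± 1.1 CPM in iron negative libraries. It was highest in 3R and 4R, which also had the highest endothelial and fibroblast sums, whose part was not tested. Of 14 genes of endotoxin sensing, 2 were lower and 1 higher (median -0.16; 6 lower with the block). Ly86, which encodes MD-1, the partner of the receptor RP105, fell by 0.55 ± 0.10 (edgeR adjusted p = 0.0177) and Tlr1 by 0.37, while Lbp, the endotoxin-binding protein, was higher by 1.92 at only 3.9 ± 1.8 CPM in iron positive and 1.02 ± 0.28 CPM in iron negative libraries. Tlr4 (0.29) and Ly96, which encodes MD-2 (0.29), did not pass with TMM, and under the macrophage scaling both passed (0.59 and 0.61, adjusted p = 0.0207 and 0.0384), as 3 of the 14 did, where 36.8% of all genes were called higher. Limma voom called 2 of the 14 lower and 0 higher.

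Of 9 tested relatives of Ms4a7, 2 were lower and none higher with TMM (median -0.28), Ms4a4c (-0.71 ± 0.17, edgeR adjusted p = 0.0308) and Ms4a6c (-0.38). The counts were 3 lower and 1 higher with the block, and 0 lower and 0 higher with limma voom, where 3 had an unadjusted p under 0.05. Under the macrophage scaling 1 was lower and 2 higher (median 0.01), where 0.585% of all genes were lower and 36.8% higher. Among the 24 other macrophage genes 10 fell and none rose (median -0.30). Besides Ly86 they included Cybb, the catalytic subunit of the phagocyte oxidase (-0.55 ± 0.10, edgeR adjusted p = 0.0184), and Lair1, an inhibitory receptor for collagen (-0.55). The macrophage scaling sets the median of this list to 0 by construction, and 3 of its genes were then lower and 3 higher. The 18 pan-leukocyte genes had 7 lower and none higher (median -0.30), and 12 lower and 1 higher with the block. The 16 housekeeping genes had 2 lower and none higher (median -0.09), and 4 lower and 1 higher with the block. With macrophage scaling 7 of the 16 were higher, where 36.8% of all genes were. Limma voom called 2 of the 13 signalling genes, 2 of the 14 lineage factors and 4 of the 24 other macrophage genes lower. It also called 4 pan-leukocyte genes and 0 housekeeping genes lower, where 273 of all 13343 genes tested were lower. DESeq2 called 7, 5, 17, 12 and 5 genes of these lists lower, in that order, where 1070 of 13337 genes tested were lower.

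Within the fractions, the genes whose deviations from the fraction mean ran closest to those of Csf1r over the 8 libraries were Pmvk (r = 0.98), Gpr65 (0.98) and Arhgap15 (0.98), out of 9896 genes compared. For Spi1 they were Cltc (0.996), Susd3 (0.994) and Ehd1 (0.99). With so few libraries and so many genes these values are a description. Pmvk, Gpr65 and Arhgap15 were also lower in the iron positive libraries (-0.31, -0.57 and -0.58, edgeR adjusted p = 0.0216, 0.0184 and 0.0295), whereas Cltc (-0.21), Susd3 (-0.15) and Ehd1 (-0.25) did not pass.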

How the data were processed

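RNA of 8 libraries, 4 iron positive and 4 iron negative, was quantified by the authors with kallisto 0.46.2 on mm10, per the submitters' processing notes; the sources used here do not name the transcript release. Per the file headers, each deposited table gives estimated counts per transcript, not normalized, and TPM, which the authors' run scaled for effective length and library total, beside transcript lengths.

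Transcripts (119414 per table) were joined to GENCODE M21 genes by identifier without version. The 2686 that did not match, 0.888% to 0.961% of the estimated counts, were left out. Estimated counts and TPM were summed per gene, without regard to strand, and counts were rounded. Of Lyz2's 31-base words 32.8% also occur in Lyz1 and 15.0% of Csf1r's in other genes, so their counts are less certain. Genes kept by filterByExpr were tested with edgeR 4.0.16 (R 4.3.3), TMM scaling and fraction as the only term, adjusted over all genes. SEs are the coefficient over the root of the F statistic and are approximate. Alternatives used DESeq2 1.42.0, limma 3.58.1 (with a pseudocount of 1 on TPM), other scalings, filters and each library left out. The precision of a value is its SD over 4 libraries. The main edgeR fit and the exact permutation test were checked on simulated data first.

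Members and lists were chosen with earlier results of these data known. Named genes are the 9 members, up to 3 called genes of each context list with the smallest adjusted p, and the 3 genes most like Csf1r and Spi1 (mean of at least 5 CPM); Csf1, Gas6, Mfge8, Tlr4 and Ly96 were named after their values were seen. Some genes under this rule are not reported here. Same-tag libraries deviated together, with r = 0.51, 0.50, 0.27 and 0.30 for 3L, 3R, 4R and 5L, all above 0.1. The highest r with another tag was 0.14, 0.21, 0.25 and 0.22, so the gap was small for 4R. Libraries of equal tag were therefore taken as pairs, which the labels do not state, in the counts of pairs and in the fits with a block. The main fit and the fits with a library left out had no term for the tag. No replicates agreed within counting noise (chi-square per gene 9.38 to 112).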

Additional observations from a re-analysis of the deposited data

How the results depend on the processing

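Over all genes, 1133 were higher and 695 lower in edgeR with TMM. The counts were 1705 and 1253 with the tag as a replicate block, where 6 of the 9 genes were lower, Cd14 being the addition. The block changed no other call of the 9. DESeq2 called 1703 higher and 1070 lower genes, limma voom 189 and 273, log2(TPM + 1) 413 and 205, and the filter of 10 CPM 432 and 338. Library totals gave 362 lower genes (76.4% of calls higher, against 62% with TMM) and housekeeping scaling 225 (86.4% higher). Scaling to macrophage genes gave 4914 higher and 78 lower, and to leukocyte genes 5052 and 80 (98.4% higher in both). The shift of the median over all genes was 0.31 for each of these and at most 0.10 for the other scalings.

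Of the 9 genes, 5 were lower with TMM. The count was 3 with voom, on log2(TPM + 1) and with housekeeping scaling, and under macrophage or leukocyte scaling 1 was lower and 2 were higher. With a library left out, 0 to 1487 genes were higher and 0 to 979 lower, and 0 to 5 of the 9 were lower. Without any 1 iron negative library none of the 9 passed in edgeR, although 5 kept an unadjusted p under 0.05 each time, and 2 passed without iron positive 4R. Under macrophage scaling, an alternative combined with left-out libraries after the data were seen, 0 to 3 were then higher and 0 to 1 lower, while the block kept 2 higher and 1 lower. Over the 12 other fits with all libraries Csf1r was called lower in 12, Adgre1 and Ms4a7 in 10, Aif1 in 7 and Spi1 in 5. Signs turned for Cd68 under macrophage and leukocyte scaling (0.20 each), and with a library left out Cd68 ranged over -0.19 to 0.016 and Mertk over -0.025 to 0.15. The cause was not tested. Of 8 ratios to Csf1r 5 passed with TPM, 7 with estimated counts, and 0 with Spi1 below the line. These counts depend on how many of the 8 ratios reach the smallest possible p. No difference of a ratio to Csf1r turned sign with a library left out or with estimated counts. By arithmetic these differences are positive wherever Csf1r falls most, so the kept sign is not a separate result. With Spi1 below the line the signs were mixed. The exact sign-flip permutation test over the 4 pairs cannot go below p = 0.125.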

Other observations

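Lyz1, the near copy of Lyz2 that Paneth cells of the mouse gut express, behaved unlike it. It was looked up after the data were seen, because it shares 422 of the 1286 words of 31 bases in Lyz2. Lyz1 stood at 21.4, 17.0, 20.6 and 22.5 TPM in iron positive 3L, 3R, 4R and 5L, against 4.57, 3.38, 7.49 and 4.99 TPM in iron negative libraries. The groups did not overlap, and the log2 fold change was 1.95 ± 0.23 (edgeR adjusted p = 0.0118, higher in 4 of 4 pairs), beside 0.11 ± 0.15 for Lyz2. Its adjusted p was as small as any of the 13343 genes in that fit. Lyz1 counts were 0.029% to 0.167% of those of Lyz2, so even a small share of reads moved between the copies would change its level, and the part of such reads was not tested.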
